A study of Mus musculus with 6 samples.

Results

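Transcripts of 10 signaling genes, 7 for protein kinase C (PKC) and 3 for phospholipase C-beta, were followed in mouse small intestinal organoids given the peptide agonist MMK-1. The rule is a list of gene names and uses no measured value, though it was drawn up with earlier results of these data known. The study places PKC downstream of formyl peptide receptor 2 (FPR2), and each gene was taken as the row of that name among the 21397 genes of the table. They are Plcb1, Plcb3, Plcb4, Prkca, Prkcb, Prkcd, Prkce, Prkch, Prkci and Prkcz. The organoids came from Fpr2f/f mice, whose Fpr2 alleles are loxP-flanked on a C57BL/6J background, and both groups share this genotype. The mice were young adults matched for age and sex. The study calls the organoids ileal, and no Cre is named for these cultures. One group received MMK-1 for 5 days and the other received the vehicle, 0.1% DMSO. The protocol gives the dose as 1 μmol/L, whereas the label for treatment reads 1 mmol/L, and the former was taken as the dose. There were 3 libraries in each group. Per the study's description, the organoids in a sample were pooled from several mice. Nothing in the labels says that the libraries of a group came from separate cultures, so p-values measure only the spread between these libraries.

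FPR2 is a G protein-coupled receptor. In the textbook pathway, an active receptor releases G protein subunits that switch on phospholipase C-beta, which cuts a membrane phosphoinositide into diacylglycerol and inositol trisphosphate (IP3). IP3 releases calcium from the endoplasmic reticulum, and calcium and diacylglycerol together activate the conventional PKC isoforms, such as PKC-alpha and PKC-beta. The calcium-independent isoforms PKC-delta, PKC-epsilon and PKC-eta need diacylglycerol alone. The atypical isoforms PKC-iota and PKC-zeta respond to neither messenger and work with the PAR polarity proteins in epithelial cells. These kinases are controlled mainly as proteins, and transcript levels do not report their activity.

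Expression was read as FPKM, the fragments on a gene scaled to its length and to the fragments of the library. The libraries held 35512739 to 37537463 fragments, with 99.7% of them on listed genes. Epithelial markers were abundant, with a summed level of 5 genes of 2220 to 2240 FPKM in controls and 1530 to 1660 with MMK-1, while 7 immune markers summed to at most 0.262 FPKM, 5 mesenchymal markers to at most 1.2 FPKM in controls and 0.43 with MMK-1 and 2 endothelial markers to at most 0.226 FPKM. Markers of cell types within the epithelium moved with MMK-1. The summed level of 5 stem cell markers was 62.1 to 63.6 FPKM in controls and 364 to 393 with MMK-1. That of 5 Paneth markers was 389 to 430 against 1270 to 1390, and that of 5 enterocyte markers was 5580 to 5650 against 3620 to 3910. Of these enterocyte markers 4 were lower, but the highest, Fabp1, was higher, at a mean of 2510 against 2220 FPKM in controls. Sums were also higher for 5 goblet markers, at 1720 to 1880 against 1370 to 1510 in controls, though Muc2 was lower. For 5 enteroendocrine markers the sum was 417 to 426 against 292 to 308 in controls. These shifts accompany every difference given for the 10 genes, and their part in those differences was not tested. In such bulk samples, fewer cells of a type and less RNA per cell cannot be told apart. MMK-1 replicate 3 stood apart from the other MMK-1 libraries, with chi-square values of 31.3 and 36.6 per degree of freedom against them, where every other pair of replicates gave 2.84 to 4.97.

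The promoter windows shown first are of 3 genes, since of the 6 genes tested Prkci and Prkcz changed most, in opposite directions, and Plcb3 was by far the most abundant of the 10 genes. RefSeq windows on GRCm38.p6 were found for 8 of the 10 genes, and each runs 5′ to 3′ on the gene's strand from 250 bases before an annotated start site to 50 bases after it. Motifs of 5 kinds were searched on both strands after the levels had been seen. They were AP-1 (TGANTCA), to which FOS binds, the cyclic AMP response element or CRE (TGACGTCA), TCF (CTTTGAT), the GC box (GGGCGG) and ETS (CCGGAAG), and capitals mark every match.
Prkci, chr3:30995521-30995820, plus strand: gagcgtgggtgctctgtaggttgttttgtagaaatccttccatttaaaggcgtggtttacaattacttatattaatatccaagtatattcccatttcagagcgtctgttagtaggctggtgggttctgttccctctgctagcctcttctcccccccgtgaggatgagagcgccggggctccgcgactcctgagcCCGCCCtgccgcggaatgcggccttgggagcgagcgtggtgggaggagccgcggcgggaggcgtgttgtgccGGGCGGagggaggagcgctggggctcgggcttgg
Prkcz, first start site, chr4:155361379-155361678, minus strand: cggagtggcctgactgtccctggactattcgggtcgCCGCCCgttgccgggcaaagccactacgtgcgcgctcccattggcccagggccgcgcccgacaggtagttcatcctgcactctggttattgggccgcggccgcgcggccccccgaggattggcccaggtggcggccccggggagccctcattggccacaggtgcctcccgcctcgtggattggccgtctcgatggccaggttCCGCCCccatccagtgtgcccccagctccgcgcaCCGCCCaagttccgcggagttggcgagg
Prkcz, second start site, chr4:155345740-155346039, minus strand: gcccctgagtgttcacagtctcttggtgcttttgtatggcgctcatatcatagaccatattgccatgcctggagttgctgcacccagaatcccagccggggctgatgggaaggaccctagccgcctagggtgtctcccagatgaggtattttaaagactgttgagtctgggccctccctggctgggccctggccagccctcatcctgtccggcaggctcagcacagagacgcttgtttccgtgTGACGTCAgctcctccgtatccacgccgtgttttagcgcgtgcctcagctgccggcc
Plcb3, chr19:6969765-6970064, minus strand: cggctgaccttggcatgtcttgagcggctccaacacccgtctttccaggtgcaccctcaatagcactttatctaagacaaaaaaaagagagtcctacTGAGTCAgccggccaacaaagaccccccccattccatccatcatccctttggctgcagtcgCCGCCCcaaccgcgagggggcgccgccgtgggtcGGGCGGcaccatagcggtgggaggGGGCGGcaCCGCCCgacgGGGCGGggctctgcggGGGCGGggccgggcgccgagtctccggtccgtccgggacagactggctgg
The Plcb3 window held 1 AP-1 match, which begins at position -153 from the start, and 6 GC boxes. An AP-1 match stands in 7.81% of all 32851 promoter windows and a GC box in 35.7%. The second start site of Prkcz held a CRE at position -7, a match found in 1.79% of all windows. Prkci and the first Prkcz window held only GC boxes, 2 and 3 of them. Neither TCF nor ETS letters occurred in any of the 12 windows of these 8 genes, against 3.73% and 8.86% of all windows. RefSeq lists 3 start sites for Prkcz, and its single FPKM value does not separate their transcripts. A match describes the letters only.

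Of the 10 genes, 6 were transcribed at more than trace levels. Their order in controls was Plcb3, Prkcd, Prkca, Prkci, Prkcz and Prkce, with 227, 27.7, 13.7, 10.4, 6.25 and 2.28 FPKM on average, and no neighbors in this order overlapped over the 3 libraries. With MMK-1 the order was the same except that Prkci, at 16.7 FPKM, passed Prkca, at 11.4 FPKM, and again no neighbors overlapped. Plcb1, Plcb4, Prkch and Prkcb stayed at or under 0.116 FPKM in every library. In controls Plcb1 overlapped Plcb4, and Prkch overlapped Prkcb. With MMK-1 Plcb4 no longer overlapped Plcb1, and Plcb1 overlapped Prkch. Lengths of the genes enter these levels. The length implied by the values of Prkcz was 15677 bases, where the exons of GENCODE vM21 cover 6318, and the folds between libraries do not depend on this. With the vM21 exon lengths for all 10 genes, an alternative added after seeing the data, the order in controls was Plcb3, Prkcd, Prkca, Prkcz, Prkci and Prkce. With MMK-1, Prkci then passed Prkcz, at 13.5 against 9.59 FPKM by these lengths, and stayed below Prkca at 14.1.

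**Figure D1:**
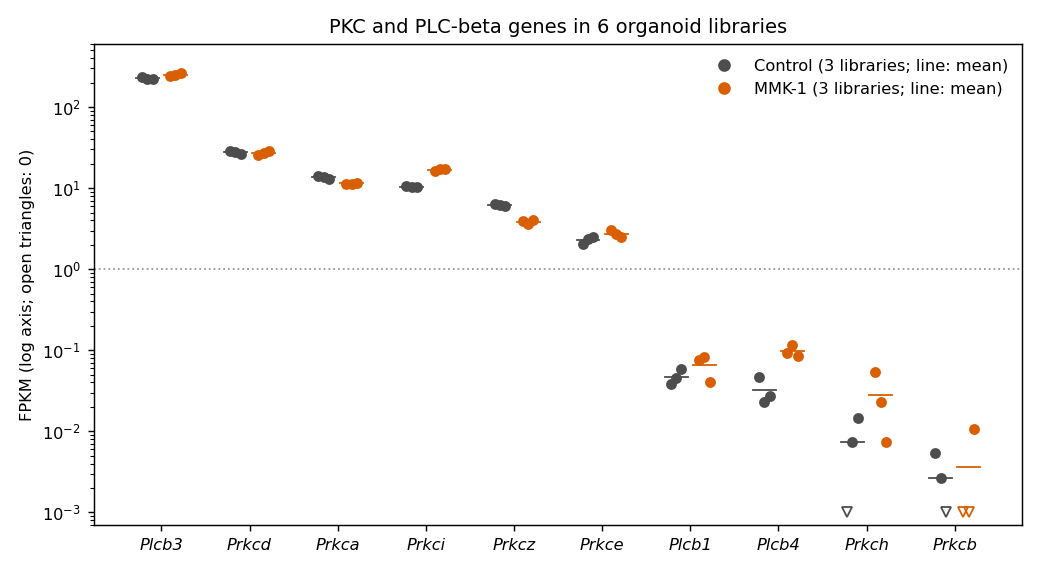
FPKM of the 10 genes on a log axis in each of 3 Control (grey) and 3 MMK-1 (orange) libraries, with lines at the group means, open triangles for libraries at 0 and a dotted line at 1 FPKM. Plcb3 lies highest, at 223 to 265 FPKM, 5 PKC genes lie between 2.04 and 28.8 FPKM, and the other 4 genes lie under the dotted line.

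The difference between MMK-1 and Control was tested with limma on log2(FPKM + 1), for the 10551 genes that averaged 1 FPKM or more, and log2 fold changes are differences on that scale. They understate the change of weakly expressed genes. All 6 of the more abundant genes entered this test and the 4 trace genes did not. At 0.05 after Benjamini-Hochberg adjustment, 3 of the 6 rose (Prkci, Plcb3 and Prkce), 2 fell (Prkcz and Prkca) and Prkcd did not pass. Most genes differed between the 2 groups of libraries by this measure, since 73.2% of all genes tested passed. Of all genes tested, 48.5% passed as higher and 24.7% as lower, so 5 of 6 is near the background. Control and MMK-1 values did not overlap in the same 5 genes, against 76.8% of all genes tested. None of the 6 had a ratio of mean FPKM of 2 or more in either direction, which 11.7% of all genes tested had with an unadjusted p of at most 0.05. Nor did any differ by 1 or more on the log2(FPKM + 1) scale, as 7.04% of all genes did with such a p. The median log2 fold change of the 6 genes was 0.06, against 0.13 over all genes tested. Scaling by the upper quartile of the genes tested moved the median of all genes to 0.06, and scaling by that of all genes listed, added after seeing the data, moved it to -0.01. The direction of Prkci, Prkcz and Prkca and their place past the threshold held under both.

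Prkci, which encodes PKC-iota, a kinase of the PAR polarity complex, rose with MMK-1. Its FPKM was 10.5, 10.4 and 10.3 in Control replicates 1 to 3 and 16.1, 17.1 and 17.0 in MMK-1 replicates 1 to 3, from 1727 to 2835 fragments a library. All MMK-1 libraries lay above all controls. The means were 10.4 ± 0.115 (SD, n = 3) and 16.7 ± 0.560 (SD, n = 3), a 1.60-fold rise. The log2 fold change was 0.63 (standard error, SE, 0.0435, limma adjusted p = 2.7e-06), and it stayed between 0.48 and 0.68 over 15 alternative settings. Prkci (NCBI gene 18759) spans 30995747 to 31052959 of chromosome 3 (GRCm38, plus strand).

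Prkcz, which encodes PKC-zeta, the other atypical isoform and a binding partner of the same polarity proteins, fell. Its FPKM was 6.42, 6.26 and 6.07 in the controls and 3.90, 3.61 and 4.08 with MMK-1, from 2034 to 3770 fragments. Every MMK-1 library was below every control. The mean went from 6.25 ± 0.174 (SD, n = 3) to 3.86 ± 0.235 (SD, n = 3), and the control level was 1.62-fold that with MMK-1. The log2 fold change was -0.58 (SE 0.054, limma adjusted p = 1.8e-05), between -0.71 and -0.50 over 15 alternative settings. Prkcz (NCBI gene 18762) spans 155260129 to 155361361 of chromosome 4 (GRCm38, minus strand).

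The 2 atypical genes therefore moved apart within the same libraries, where scaling between libraries has no part. The ratio of Prkci to Prkcz FPKM was 1.64, 1.67 and 1.69 in controls and 4.11, 4.73 and 4.17 with MMK-1, so that the mean ratio was 2.60-fold higher with MMK-1. The size of the ratio rests on the gene lengths, and its fold between groups does not. These ratios were formed after the values of both genes were seen and are given without a test.

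Prkca, which encodes the conventional isoform PKC-alpha, fell by less. It stood at 14.1, 13.9 and 13.1 FPKM in controls and at 11.4, 11.3 and 11.6 FPKM with MMK-1. The groups did not overlap, and the 3 MMK-1 libraries differed by less than the controls did. The mean fell from 13.7 ± 0.522 (SD, n = 3) to 11.4 ± 0.145 (SD, n = 3), with 4474 to 5827 fragments a library. The log2 fold change was -0.24 (SE 0.0448, limma adjusted p = 0.0012) and lay between -0.39 and -0.21 over the alternatives. Prkca (NCBI gene 18750) is on chromosome 11 from 107933387 to 108343928, and 30 bases of its exons overlap Apoh on the opposite strand.

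Prkcd encodes PKC-delta, which diacylglycerol activates without calcium, and it was the most abundant PKC transcript in both groups. Its FPKM was 28.5, 28.0 and 26.7 in controls and 25.3, 27.0 and 28.8 with MMK-1. The groups overlapped fully, with MMK-1 replicate 1 the lowest and replicate 3 the highest of the 6 libraries. The log2 fold change was -0.04 with a 95% interval of -0.16 to 0.09 (limma adjusted p = 0.564). Scaling by the upper quartile of all genes listed gave -0.19 (adjusted p = 0.0073), so whether Prkcd was lower depended on the scaling.

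Prkce encodes PKC-epsilon, of the same class, and passed the threshold only narrowly. Its FPKM was 2.04, 2.33 and 2.48 in controls and 3.02, 2.71 and 2.49 with MMK-1, where the lowest MMK-1 library and the highest control were nearly equal. The log2 fold change was 0.19 (SE 0.0755, limma adjusted p = 0.0492). It no longer passed under 10 of 15 alternatives, among them upper-quartile scaling of the genes tested (0.13, adjusted p = 0.167). Leaving out Control replicate 1, Control replicate 2, MMK-1 replicate 1 or MMK-1 replicate 2 also ended the call, with adjusted p of 0.170, 0.0855, 0.162 and 0.0921.

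**Figure D2:**
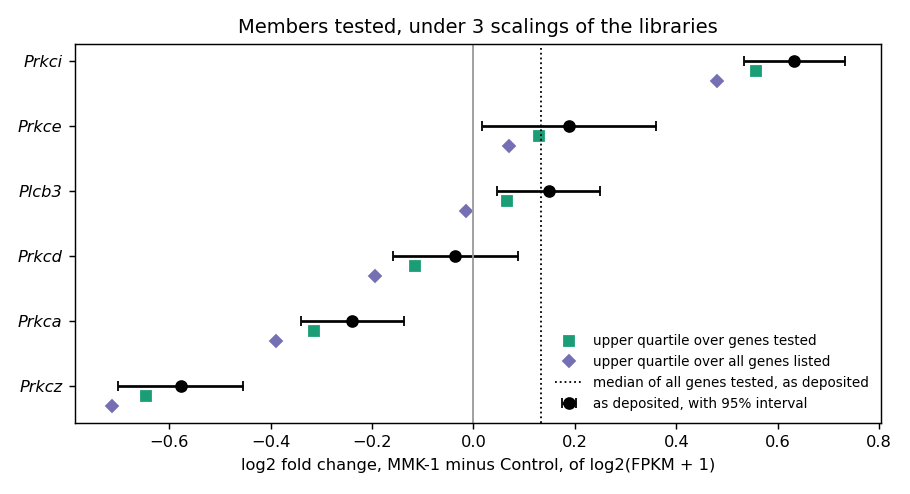
Log2 fold change of the 6 genes tested, MMK-1 minus Control on the log2(FPKM + 1) scale, from the values as deposited (black, with 95% intervals from the limma test) and after 2 upper-quartile scalings (green and purple), with a dotted line at the median of all genes tested. Prkci stays at 0.48 or more and Prkcz at -0.58 or less under each scaling, whereas Plcb3 crosses 0.

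The makeup of the PKC transcripts differed between the groups. The summed FPKM of the 7 PKC genes was 60.4 ± 1.54 (SD, n = 3) in controls and 61.8 ± 2.09 (SD, n = 3) with MMK-1. The share of Prkci in that sum was 17.3% ± 0.255 (SD, n = 3) in controls and 27.0% ± 0.554 (SD, n = 3) with MMK-1. That of Prkcz went from 10.4% ± 0.0797 to 6.25% ± 0.357, and that of Prkca from 22.6% ± 0.290 to 18.5% ± 0.493 (SD, n = 3 each). Prkcd kept the largest share, at 45.9% ± 0.399 and 43.7% ± 1.31 (SD, n = 3 each). Sums and shares rest on the gene lengths. With the vM21 exon lengths the sum was 65.7 ± 1.66 against 62.2 ± 1.81 (SD, n = 3 each), so its direction depends on them. The share of Prkci was then 12.8% ± 0.184 against 21.7% ± 0.575, that of Prkcz 23.6% ± 0.172 against 15.4% ± 0.766, that of Prkca 25.6% ± 0.338 against 22.6% ± 0.441 and that of Prkcd 33.7% ± 0.302 against 34.7% ± 1.26 (SD, n = 3 each). The rise of the Prkci share and the fall of the Prkcz and Prkca shares were found with both sets of lengths. As sums over chosen genes these values carry no test.

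**Figure D3:**
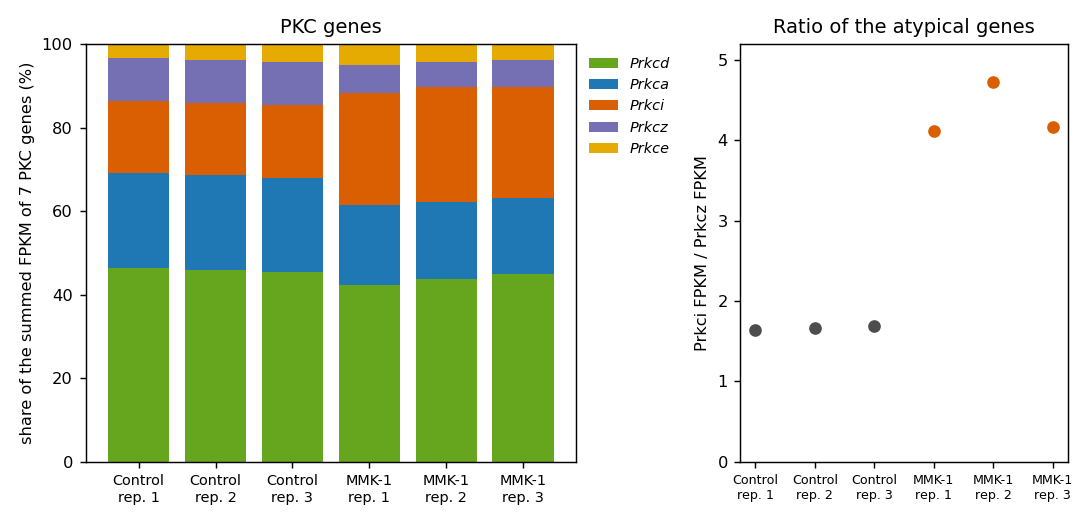
Left, the share of each PKC gene in the summed FPKM of 7 PKC genes, in percent, for each library; Prkch and Prkcb are too small to see. Right, the ratio of Prkci to Prkcz FPKM in each library, which is 1.64 to 1.69 in the 3 Control libraries and 4.11 to 4.73 in the 3 MMK-1 libraries.

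Plcb3 supplied nearly all phospholipase C-beta transcripts, 99.9% or more of the summed FPKM of the 3 genes in every library with the lengths of the table. It encodes PLC-beta-3, an isoform that Gq alpha and G beta-gamma subunits activate. Its mean level exceeded that of 98.8% of the genes above 0, and its FPKM was 232, 225 and 223 in controls against 243, 246 and 265 with MMK-1. The groups did not overlap, and MMK-1 replicate 3 was the highest library. The means were 227 ± 5.07 (SD, n = 3) and 251 ± 12.0 (SD, n = 3). The log2 fold change of 0.15 (SE 0.0446, limma adjusted p = 0.0148) was close to the median of all genes. It was 0.07 (adjusted p = 0.140) after scaling by the upper quartile of the genes tested and -0.02 (adjusted p = 0.730) by that of all genes listed. Without Control replicate 2 or Control replicate 3 its adjusted p was 0.0601 and 0.0602. Plcb3 (NCBI gene 18797) lies on chromosome 19 from 6952325 to 6976470, with 22 bases of exon shared with Ppp1r14b on the opposite strand.

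The other phospholipase C-beta genes were barely transcribed. Plcb4, an isoform best known from neurons of the cerebellum and retina, was read by 22, 11 and 13 fragments in Control and by 42, 53 and 40 in MMK-1 libraries, and the groups did not overlap. The ratio of its fragments per library total was 3.04 (95% exact interval 2.16 to 4.34, counting error only). In the fit over all 20676 genes above 0 its log2 fold change was 0.09, which the pseudocount compresses at such low levels (limma adjusted p = 0.0046). It passed under all 13 alternatives, of which limma-voom on the fragments gave 1.62. The study names Plcb4 from these same libraries, so its values here are not independent evidence. The FPKM reached only 0.0977 ± 0.0162 (SD, n = 3) with MMK-1. Plcb1 gave 31, 37 and 47 fragments without and 58, 64 and 33 fragments with MMK-1, where replicate 3 lay within the control range. Its adjusted p was 0.306 in that fit and 0.0397 without MMK-1 replicate 3. Of all genes above 0, 43.3% passed the same fit, 28.1% as higher, and groups did not overlap in 52.8%. A ratio of mean FPKM of at least 2 in either direction with an unadjusted p of at most 0.05 was found in 14.5% of them. A difference of 1 on the log2(FPKM + 1) scale, found in 3.68%, is out of reach for genes at trace levels.

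Prkch and Prkcb were at the limit of detection. Prkch, for PKC-eta, was found in 0, 1 and 2 fragments of the controls and in 7, 3 and 1 with MMK-1, a ratio of 3.79 (95% exact interval 1 to 21.2, counting error only). The groups overlapped and the adjusted p was 0.258 over all genes above 0. Prkcb, for the conventional isoform PKC-beta that is abundant in B lymphocytes, was found in 2, 1 and 0 fragments of the controls and in 0, 0 and 4 of the MMK-1 libraries. A count of 0 allows up to 3 fragments in a library, and Prkcb was at 0 in Control replicate 3 and in MMK-1 replicates 1 and 2. No ratio of its fragments is therefore given, and its log2 fold changes under the alternatives rest on these few fragments. Of the conventional class, Prkca thus accounted for nearly every fragment of the 2 genes.

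Close relatives outside the 10 genes were measured too. Prkcq, for PKC-theta of T lymphocytes, had at most 2 fragments in any library. Plcb2, a phospholipase of leukocytes and taste-like cells, gave 24, 13 and 13 fragments without and 39, 21 and 23 with MMK-1, with overlapping groups (adjusted p = 0.183).

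The pathway annotation in the table describes how the genes divide. The 3 Plcb genes, Prkca and Prkcb are the only members of the 10 under Wnt signaling, which lists 154 genes, and under the phosphatidylinositol signaling system, which lists 91. Prkci and Prkcz, and none of the other 8, are under Hippo signaling, with 144 genes, insulin signaling, with 130, and endocytosis, with 247. They stand with Prkce under tight junction, with 151. MAPK signaling, with 269 genes, lists Prkca and Prkcb.

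Around the 10 genes, a list of other genes of the pathway held 71 genes of the table, of which 48 were tested. Of these, 21 rose and 12 fell past the same threshold, which is near the shares among all genes tested, and the median log2 fold change was 0.07. With the upper quartile of all genes listed as the scale, 13 were higher and 22 lower, where 34.3% of all genes tested were higher and 37.3% lower. These shares, and the 48.5% and 24.7% for the values as deposited, are the background of the counts for each group. Among kinases related to PKC, 3 of 5 rose and none fell, against 2 higher and 1 lower (Prkd2, -0.20, limma adjusted p = 0.0202) under that scaling. Prkd3, a protein kinase D that acts downstream of PKC, went from 1.45 ± 0.115 to 5.10 ± 0.0574 FPKM (SD, n = 3 each), a log2 fold change of 1.31 (SE 0.0558, limma adjusted p = 1.6e-07). Pkn3 had a log2 fold change of 1.00 and Pkn2 of 0.29, the latter no longer past the threshold under that scaling (0.14, adjusted p = 0.158). Among the other phospholipases C, 4 of 7 rose and none fell, with log2 fold changes of 0.96 for Plch2 and 0.77 for Plch1. Plcd3, at 1.02, averaged 0.337 FPKM in controls and 1.71 with MMK-1. It met the filter of 1 FPKM only through its MMK-1 libraries and left the test without MMK-1 replicate 3. Its place in these counts rests on that. Under that scaling 3 of the 7 were higher and 1 was lower (Plcl2, -0.18, limma adjusted p = 0.0218).

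Upstream of the kinases, genes moved both ways. Gna11, a Gq class alpha subunit that activates phospholipase C-beta and the abundant one of its class, was 279, 284 and 282 FPKM in controls and 188, 188 and 202 with MMK-1. The groups lay far apart, with a log2 fold change of -0.55 (SE 0.0407, limma adjusted p = 4.3e-06), while Gnaq did not pass (-0.04, adjusted p = 0.518). Dgka, a kinase that removes diacylglycerol, fell from 10.1 ± 0.225 to 4.20 ± 0.0760 FPKM (SD, n = 3 each), a log2 fold change of -1.10. Of the other diacylglycerol kinases tested, Dgkq fell by 0.26 and Dgke rose by 0.66 on the log2 scale, and 2 of 5 did not pass. Dgke averaged 0.712 FPKM in controls and 1.71 with MMK-1, so it met the filter of 1 FPKM only through its MMK-1 libraries. Among the IP3 receptors, Itpr3, the abundant one, rose by 0.52 on that scale. The other 2 averaged under 1 FPKM and went opposite ways in the fit over all genes above 0, Itpr1 up by 0.46 (limma adjusted p = 0.0014) and Itpr2 down (-0.15, limma adjusted p = 0.013). Of 10 genes of phosphoinositide supply, 4 rose and 3 fell, with the largest change in Cds1 (-0.45), followed by Pip5k1a (0.26) and Pitpnb (0.22). With the upper quartile of all genes listed as the scale, none of these 10 was higher and 6 were lower, with Pip5k1a at 0.11 (limma adjusted p = 0.0753) and Pitpnb at 0.06 (limma adjusted p = 0.178). Under it Gnaq was lower too (-0.18, limma adjusted p = 0.0103), and 3 diacylglycerol kinases were lower and 1 higher.

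The largest change of the pathway list was in a PKC substrate. Marcksl1, a relative of the classical PKC substrate MARCKS, was 3.67, 4.81 and 4.36 FPKM in controls and 23.1, 22.4 and 24.5 with MMK-1. Its log2 fold change was 2.21 (SE 0.0788, limma adjusted p = 6.4e-08). Marcks itself rose by 1.18 on the log2 scale, unevenly, with 49.8, 49.3 and 34.3 FPKM in MMK-1 replicates 1 to 3 against 18.4 to 19.3 in controls. Phlpp2, a phosphatase that dephosphorylates PKC, fell by 1.07 on the log2 scale, from 9.51 ± 0.343 to 4.01 ± 0.131 FPKM (SD, n = 3 each), whereas Phlpp1 rose by 0.74. In this group 5 of 8 genes tested rose and 2 fell, against 3 higher and 3 lower by the upper quartile of all genes listed. Of 2 diacylglycerol-binding effectors tested, Unc13b rose by 0.46 and Chn2 fell by 0.41 on that scale.

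Partners of the atypical kinases showed no single direction. Of 8 tested, 2 rose, 3 fell and 3 did not pass, and by the upper quartile of all genes listed 2 were higher and 5 lower. Pard6a, an adaptor that binds both atypical isoforms, rose by 0.65 and Llgl1, a polarity protein phosphorylated by them, by 0.53, while Sqstm1, the scaffold p62, fell by 0.49 on the log2 scale. Pard3 fell by 0.14 and Cdc42 by 0.10. Pard6b, the more abundant of the 2 tested Pard6 genes, gave 0.06 (limma adjusted p = 0.408).

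**Figure D4:**
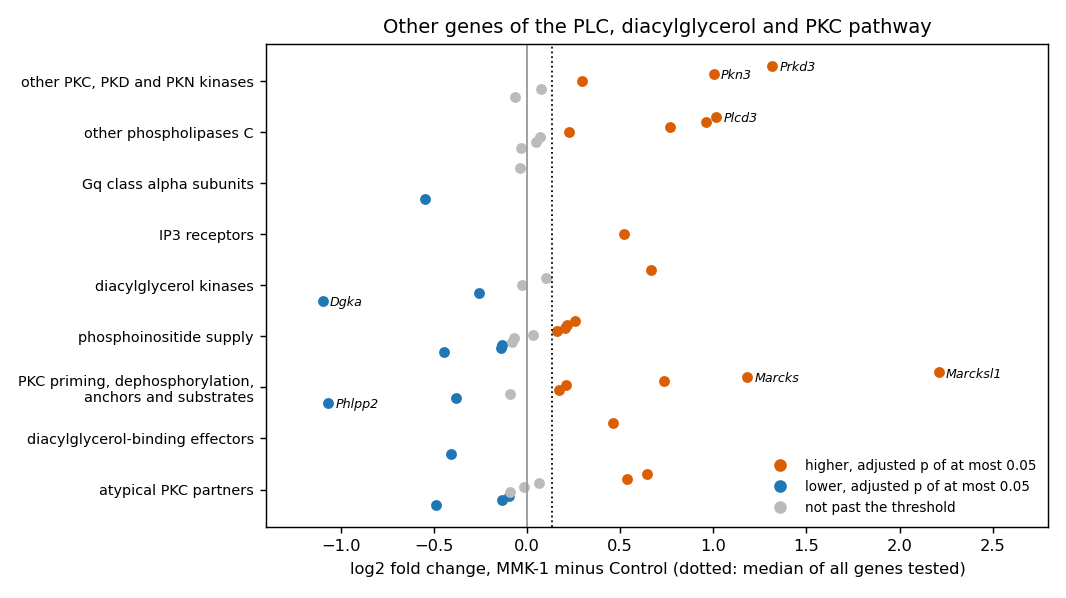
Log2 fold change (MMK-1 minus Control, log2(FPKM + 1) scale) of the 48 tested genes of the pathway list in 9 groups, with orange and blue for genes past the threshold as higher or lower and grey for the rest. Gene names are given beyond 1 in either direction, and Marcksl1 lies farthest to the right at 2.21 and Dgka farthest to the left at -1.10.

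Prkci had the largest log2 fold change in size of the 6 tested members on the log2(FPKM + 1) scale. As a ratio of mean FPKM, Prkcz changed slightly more, 1.62-fold against 1.60-fold. Over the 6 libraries, the tested genes whose profile lay nearest to that of Prkci were Gba2, Srpk1, B3galnt2, Cpsf2 and Rrp1b. Likeness was the root mean square difference in log2(FPKM + 1) after subtracting each gene's control mean, and it was 0.0135 to 0.0212 for these 5 genes. Their log2 fold changes were 0.62 to 0.63. For Gba2 the likeness holds on this scale only, since the pseudocount compresses changes at low levels. Its mean went from 1.31 to 2.59 FPKM, where that of Prkci went from 10.4 to 16.7.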

How the data were processed

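RNA sequencing was measured in 6 libraries, 3 Control and 3 MMK-1, grouped by their titles. The authors deposited 1 table with FPKM per gene. The submitters' processing notes name mm10, HISAT2, HTSeq, R 3.2.0 and DESeq2, with no role or order; the annotation and strand setting are not given in the sources used here. A count model had been planned in case the table held counts. Since it held FPKM, limma 3.58.1 (R 4.3.3, trend and Benjamini-Hochberg adjustment over all genes tested) was applied to log2(FPKM + 1) of the 10551 genes with a mean of at least 1. Members under that filter came from the fit over all 20676 genes above 0.

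FPKM values were whole multiples of 1 fragment's worth in all of these 20676 genes (tolerance at most 0.02 fragments), which gave fragments per gene and library. Depth was 35512739 to 37537463 fragments. Intervals on fragments are exact and cover counting error only, and a count of 0 allows 3 fragments. An exact permutation test of 3 against 3 libraries cannot go below p = 0.1. On simulated data for 10288 genes, 100% of the 190 changed genes tested were called, and 27 unchanged genes were called.

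The 10 members and all lists were chosen with earlier results of these data known. Of each pathway group, the 3 genes with the largest absolute log2 fold change at an adjusted p of at most 0.05 are named, beside Prkcq and Plcb2; 1 further gene is not reported here. Gnaq, Itpr1, Itpr2, Prkd2, Plcl2, Phlpp1, Pard3, Cdc42 and Pard6b were added after their values were seen. Prkd1, Plcd4 and Dgkk were not analysed here. Gene positions are from GENCODE vM21 and pathway names from the deposited table's annotation. Alternatives were other scalings, pseudocounts, filters and fold thresholds, TPM, exon lengths of GENCODE vM21, a GC correction (loess, span 0.3, GC content known for 96.4% of genes tested), limma-voom on the fragments, a replicate block and leaving out each library. Python 3.11.15 with numpy 2.4.6, pandas 2.3.3 and matplotlib 3.10.9 was used.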

Additional observations from a re-analysis of the deposited data

How the results depend on the processing

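Prkci, Prkcz and Prkca kept their direction and stayed past the threshold under all 15 alternatives. The count of members that rose went from 3 to 1 under upper-quartile scaling of the genes tested and to 1 under upper-quartile scaling over all genes listed, which was chosen after seeing the data. It ranged from 1 to 3 when 1 library was left out, and was 1 without Control replicate 2. With a fold of 1.5 in place of 2 on the log2(FPKM + 1) scale, 1 of the 6 members tested (Prkci) passed as higher. As a ratio of mean FPKM, Prkcz (1.62-fold higher in controls) also exceeds 1.5 among these 6. Plcb4 and Prkch, at trace levels and outside this test, had ratios of mean FPKM of 3.04 and 3.84, the latter with overlapping groups. With upper-quartile scaling over all genes listed, 13 pathway genes were higher and 22 lower, against 21 and 12 without it. Pathway genes that fell numbered 8 to 15 when 1 library was left out, and 15 without MMK-1 replicate 3. Of all genes called, 66.3% were higher with the values as deposited, 57.2% after upper-quartile scaling of the genes tested and 47.9% after scaling over all genes listed. Plcb3 turned to -0.015 under that last scaling. Prkcd turned to 0.008 without MMK-1 replicate 1, within a range of -0.080 to 0.008 when 1 library was left out, and to 0.038 with the GC correction. Prkcb, at the limit of detection, turned to -0.001 without Control replicate 3, to -0.004 without MMK-1 replicate 3 (range -0.004 to 0.004) and to -0.191 with limma-voom, and with the GC correction it passed (0.050, adjusted p = 0.0235 in limma). The cause of these changes was not tested. Same-numbered libraries correlated at 0.025, -0.040 and 0.028 in their deviations from the group means, and unlike-numbered ones at -0.056 to 0.063. No pairing by number was seen, but this cannot tell whether the cultures were prepared in pairs. With a replicate block, 2 members were higher and 2 lower, as Prkce no longer passed (adjusted p = 0.0855 in limma). With vM21 exon lengths the difference in summed PKC turned from 1.46 to -3.56 FPKM. Depth limits Prkch and Prkcb.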
